A study of Rattus norvegicus with 19 samples.

Results

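Cyclins and early growth genes of the liver are described here as a set of 10 genes: the D-type cyclins Ccnd1, Ccnd2 and Ccnd3, their kinase Cdk4, cyclin E (Ccne1), the transcription factor Myc, the inhibitor Cdkn1b (p27), the replication clamp Pcna, and the mitotic pair Cdk1 and Ccnb1. Members were all probe sets annotated to exactly one of these genes. They came to 14 of the 15923 probe sets of the first array type and to 0 of the 15333 of the second, so that every value of a member comes from the first. There they are 10 of 10411 genes with a probe set of their own. Adult rats were fasted overnight, injected once into the peritoneum with pregnenolone-16α-carbonitrile (PCN) at 100 mg/kg or with corn oil, the vehicle, and their livers were taken 8 h later. PCN is a synthetic steroid and an agonist of the pregnane X receptor of rodents. The labels name 5 biological replicates a group, treated here as separate animals. The first array type held 5 corn oil and 5 PCN arrays, the second 4 and 5. The study asked whether PCN activates genes beyond those of drug metabolism. Values are log2 expression per probe set, so a difference of 1 is a doubling. The number of arrays limits the precision.

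In the cell cycle, D-type cyclins bind CDK4 or CDK6 in G1 and start the phosphorylation of the retinoblastoma protein, which frees E2F factors to switch on cyclin E and the genes of DNA synthesis. p27 restrains this step, PCNA holds the polymerases on DNA in S phase, and CDK1 with cyclin B drives mitosis. Hepatocytes of the adult liver rest outside the cycle. After loss of liver tissue they induce Myc and other early genes first and Ccnd1 later, and the rise of Ccnd1 is used as a mark of commitment to the cycle.

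The RefSeq promoter table for the rat assembly GRCr8 held 7 of the 10 genes, and Ccnd1, Ccnd2 and Myc were not matched. Upstream sequence is shown for Cdk4, a textbook target of MYC, and for the mitotic pair. It ends at the base before the transcription start of the promoter entry and reads 5′ to 3′ on the strand of the gene. For Cdk4 and Ccnb1 that is the base before the annotated gene. The annotated Cdk1 gene starts at base 19265252 of chromosome 20, so the last bases of the Cdk1 window lie inside it. E-boxes (CACGTG) are in capitals for Cdk4, and CCAAT boxes (CCAAT, or ATTGG on the other strand) for Ccnb1 and Cdk1.
Cdk4, chr7:64771203-64771452, plus strand: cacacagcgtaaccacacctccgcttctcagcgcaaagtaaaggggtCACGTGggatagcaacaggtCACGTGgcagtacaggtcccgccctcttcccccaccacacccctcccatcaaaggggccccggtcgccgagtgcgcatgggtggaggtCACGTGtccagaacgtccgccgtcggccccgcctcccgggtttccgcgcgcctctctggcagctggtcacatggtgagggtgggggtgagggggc
Ccnb1, chr2:33655226-33655325, minus strand: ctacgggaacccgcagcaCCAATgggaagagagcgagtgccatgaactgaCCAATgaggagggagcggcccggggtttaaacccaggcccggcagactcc
Cdk1, chr20:19265193-19265292, plus strand: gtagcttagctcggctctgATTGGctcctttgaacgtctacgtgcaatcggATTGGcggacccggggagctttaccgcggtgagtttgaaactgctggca

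The Cdk4 window held 3 E-boxes in 250 bases. At least 1 was found in 5.59% of the 33465 rat promoter windows of that length and at least 3 in 0.0508%, and no other of the 7 member promoters had one. Ccnb1 and Cdk1 each had 2 CCAAT boxes in the 100 bases printed, 32 bases apart in both genes, written as CCAAT in Ccnb1 and as ATTGG in Cdk1. A window of 100 bases with at least 2 was found in 2.63% of promoters and, among the 7, in these 2 genes alone. The letters TTTGAA (or TTCAAA) are the core of the cell cycle homology region. They occurred in the window of 250 bases of Cdk1 and in none of the other 6, against 16.2% of all promoters. These matches describe the letters in these windows and do not show binding.

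Ccnd1 was the only member that passed the test. Its 3 probe sets all rose, by 1.95-fold to 2.37-fold. None of the other 8 tested member probe sets was called in either direction. Among all 11106 tested probe sets 361 were called (3.25%), 256 higher (2.31%) and 105 lower (0.945%). The share of calls that went up was 70.9%, and 57.7% with quantile normalization and 59.3% with trimmed mean scaling. It was 52.1% when the fit also held the division of the arrays given with the Ccnd1 calls. A call means an adjusted p under 0.05 in limma, with Benjamini-Hochberg adjustment over all tested probe sets of the table. Of the 14 member probe sets 3, a single one each of Cdkn1b, Cdk1 and Ccnb1, had a mean below 6.67, the 30th percentile of the table, and were not tested there.

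Both arrays numbered 2 lay apart from their groups over all tested probe sets. On the first principal component (30.1% of the variance) PCN replicate 2 scored -2.02, against 9.7 to 28.4 for the other PCN arrays and -17 to -0.39 for corn oil. On the second (27.3%) corn oil replicate 2 scored 37.2, against -14.8 to 10.7 for all other arrays. Corn oil replicate 1 also lay apart on the first component, at -0.39 against -17 to -14.5 for the other corn oil arrays. The Ccnd1 estimates are therefore given with and without these arrays. Without corn oil replicate 1 the log2 fold change was 0.94 for probe set 1371643_at, 1.21 for 1383075_at and 0.97 for 1371150_at (limma, adjusted p = 0.0605, 0.0851 and 0.0256).

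**Figure D1:**
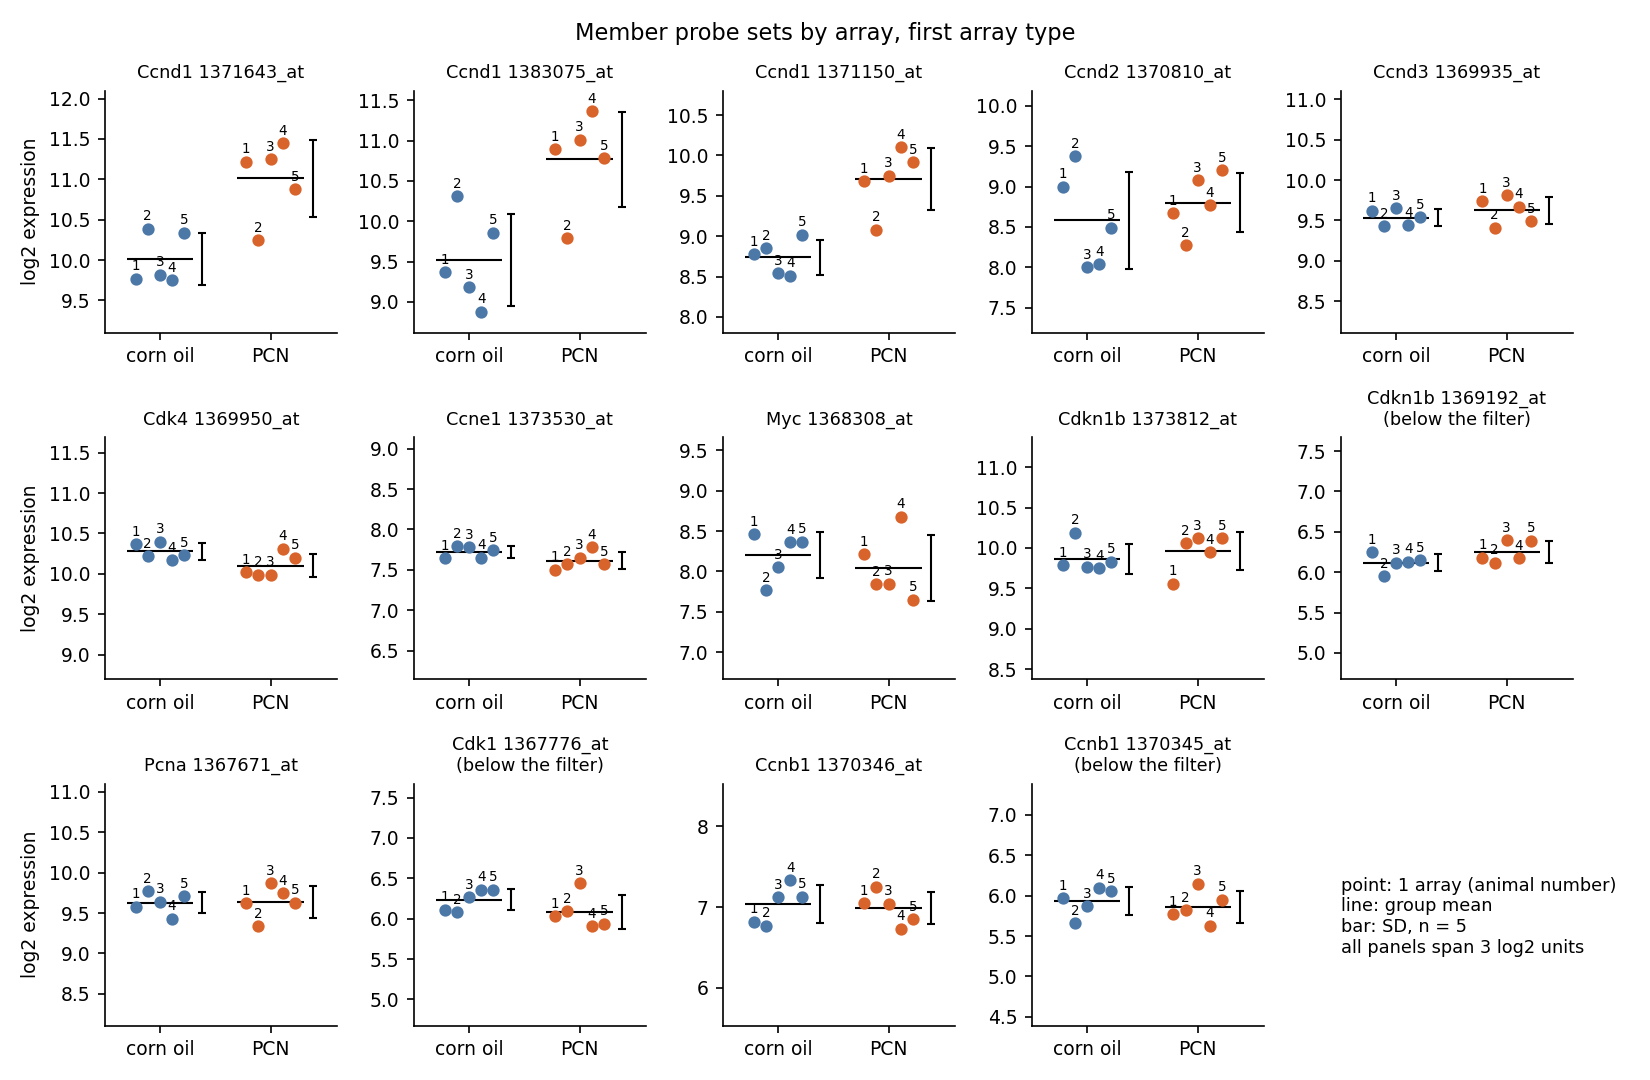
Log2 expression of the 14 member probe sets on the first array type, 1 point per array with its replicate number, corn oil in blue and PCN in orange; lines are group means and bars SD (n = 5). The Ccnd1 panels show at least 4 PCN arrays above all corn oil arrays and PCN replicate 2 at or near the corn oil range, while the groups overlap in every other panel.

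The brightest Ccnd1 probe set, 1371643_at, read 9.77, 10.39, 9.82, 9.75 and 10.34 in corn oil replicates 1 to 5 and 11.22, 10.25, 11.25, 11.45 and 10.88 in the PCN replicates. PCN replicates 1, 3, 4 and 5 were above every corn oil array, whereas PCN replicate 2 lay inside the corn oil range. The group mean was 10.01 ± 0.32 in corn oil and 11.01 ± 0.47 after PCN (SD, n = 5 each), which is a rise of 1.99-fold (log2 fold change 1.0 ± 0.22 SE, adjusted p = 0.031, limma). Probe set 1383075_at read 9.37, 10.31, 9.18, 8.88 and 9.86 in corn oil and 10.89, 9.79, 11.01, 11.36 and 10.78 after PCN. As in the first probe set, corn oil replicate 2 was the highest control and PCN replicate 2 the lowest treated array, inside the corn oil range. The rise was 2.37-fold (1.24 ± 0.31, adjusted p = 0.0489, limma).

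Probe set 1371150_at read 8.78, 8.85, 8.54, 8.51 and 9.02 in corn oil and 9.68, 9.08, 9.75, 10.10 and 9.92 after PCN. Here the groups did not overlap, as for 6.04% of all tested probe sets, although PCN replicate 2 was only just above corn oil replicate 5. The rise was 1.95-fold (0.96 ± 0.17, adjusted p = 0.0136, limma; exact two-sided permutation p = 0.00794, the smallest that 252 regroupings can give). The exact permutation p of each of the other Ccnd1 probe sets was 0.0238. The 3 probe sets report on the same transcript and are not independent. Over the 10 arrays their values correlated in pairs with Pearson's r of 0.943 to 0.978, and with 0.845 to 0.947 after the group means were removed.

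PCN replicate 2 was low in Ccnd1 and level with the other PCN arrays in 3 genes known to respond to the receptor. Cyp3a23-3a1, a cytochrome P450 and main receptor target, read 13.82 in that animal, against 13.72 to 13.82 in all PCN arrays and 12.75 to 13.36 in corn oil. Alas1, which catalyses the limiting step of heme synthesis, read 13.49 in PCN replicate 2 (13.15 to 13.59 in PCN, 11.29 to 11.94 in corn oil). Por, the electron donor of P450 enzymes, read 12.71 (12.35 to 12.81 in PCN, 10.95 to 11.66 in corn oil). For all 3 genes each of the 5 PCN arrays was above every corn oil array. Without PCN replicate 2 the Ccnd1 probe sets, in the order given above, had larger estimates of 1.19, 1.49 and 1.12 on the log2 scale (limma, adjusted p = 0.00567, 0.0138 and 0.00187). They were 1.09, 1.44 and 0.99 without corn oil replicate 2 and 1.28, 1.69 and 1.15 without both. PCN replicate 2 was the lowest PCN array in each Ccnd1 probe set, and corn oil replicate 2 was above the corn oil mean in each. Their omission therefore raises the estimates by construction and is given as a description.

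**Figure D2:**
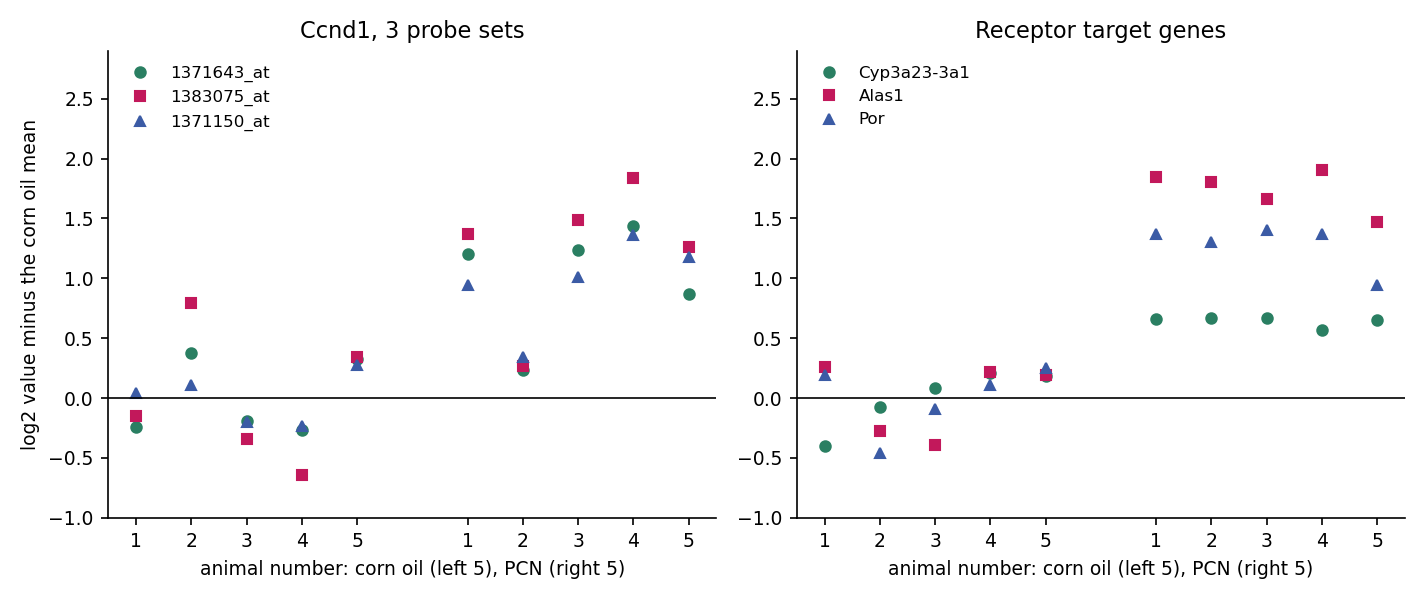
Log2 value minus the corn oil mean on each array for the 3 Ccnd1 probe sets (left) and for 3 receptor target genes (right), by replicate number, corn oil then PCN. PCN replicate 2 is the lowest PCN array for each Ccnd1 probe set, and is level with the other PCN arrays for Cyp3a23-3a1, Alas1 and Por. It is inside the corn oil range for 1371643_at and 1383075_at and just above it for 1371150_at.

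The calls of 1371643_at and 1383075_at depended on single arrays. Only 1371150_at was called when any one of corn oil replicates 1, 3 or 4 or PCN replicates 1, 3, 4 or 5 was left out (adjusted p 0.0256 to 0.0453), while 1371643_at reached 0.0878 and 1383075_at 0.119 in these fits. Calls over all tested probe sets also fell in these fits, to between 154 and 319 from 361 with all arrays. An earlier analysis of these data had divided the arrays into a set of corn oil replicate 1 with PCN replicates 1, 3, 4 and 5 and a set of the other 5, a division that the labels do not give and that overlaps strongly with treatment. The 2 sets also part on the first principal component of these same values, at -0.39 to 28.4 against -17 to -2.02. Most PCN arrays scored higher on it than corn oil arrays. A term for the sets can therefore take up part of a treatment difference, and a fit without it can hold part of a set difference. With 1 corn oil array in the first set and 1 PCN array in the second, these cannot be told apart. With this term no Ccnd1 probe set was called, and their estimates were 0.80, 0.93 and 0.71 on the log2 scale (limma, adjusted p = 0.212, 0.305 and 0.11). The term itself was not called for any of them (limma, adjusted p = 0.553, 0.488 and 0.318). The difference between PCN and corn oil means was 1.43, 1.64 and 1.08 within the first set (1 corn oil, 4 PCN arrays) and 0.17, 0.23 and 0.35 within the second (4 corn oil, 1 PCN array).

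The other D-type cyclins were not called. Ccnd2 read 9.0, 9.38, 8.00, 8.04 and 8.49 in corn oil and 8.67, 8.27, 9.08, 8.77 and 9.20 after PCN. Corn oil replicate 2 was the highest of all 10 arrays, and the control arrays alone spread over more than a log2 unit. The log2 fold change was 0.22 (95% interval -0.36 to 0.79, adjusted p = 0.72, limma). The intervals of the Ccnd1 probe sets, with lower ends of 0.52 to 0.58, overlapped this interval. A difference between Ccnd1 and Ccnd2 was not tested. Ccnd3 had little spread, at 9.62, 9.43, 9.65, 9.44 and 9.54 in corn oil and 9.74, 9.41, 9.81, 9.67 and 9.49 after PCN. Its groups overlapped, with a log2 fold change of 0.09 (interval -0.13 to 0.31, adjusted p = 0.692).

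Cdk4, the partner kinase of the D cyclins, read 10.37, 10.22, 10.40, 10.17 and 10.23 in corn oil and 10.02, 9.99, 9.99, 10.31 and 10.20 after PCN. PCN replicates 1, 2 and 3 were below every corn oil array, and PCN replicates 4 and 5 were not. The log2 fold change was -0.17 (interval -0.39 to 0.04, adjusted p = 0.383, limma). Myc read 8.46, 7.77, 8.05, 8.36 and 8.37 in corn oil and 8.21, 7.84, 7.85, 8.68 and 7.65 after PCN. The highest and the lowest of the 10 Myc values were both PCN arrays, replicates 4 and 5. Its log2 fold change was -0.15 (interval -0.57 to 0.26, adjusted p = 0.725). Myc and Cdk4, whose promoter is printed above with its E-boxes, correlated over the 10 arrays with r = 0.425, and with 0.364 after the group means were removed. For Myc and Ccnd1 these values were -0.0483 and 0.252, so the sign depends on the group means. Both pairs describe the same 10 arrays.

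Ccne1, which takes over from the D cyclins at the end of G1, read between 7.64 and 7.79 in corn oil and between 7.5 and 7.78 after PCN. PCN replicates 1, 2 and 5 were the lowest arrays, and the log2 fold change was -0.10 (interval -0.27 to 0.06, adjusted p = 0.51, limma). Cdkn1b had 2 probe sets. Its brighter probe set, 1373812_at, read 9.79, 10.19, 9.77, 9.75 and 9.83 in corn oil and 9.56, 10.06, 10.12, 9.95 and 10.12 after PCN. Corn oil replicate 2 was the highest and PCN replicate 1 the lowest of all, and the log2 fold change was 0.10 (interval -0.19 to 0.38, adjusted p = 0.74). The dimmer probe set, 1369192_at, below the limit on low values, read 5.95 to 6.25 and 6.12 to 6.40, with a log2 fold change of 0.13 in the fit without that limit (adjusted p = 0.472).

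Pcna read 9.58, 9.77, 9.64, 9.43 and 9.71 in corn oil and 9.62, 9.34, 9.87, 9.75 and 9.63 after PCN. The highest and lowest arrays were again both of the PCN group, and the means of 9.63 ± 0.13 and 9.64 ± 0.20 (SD, n = 5 each) differed by 0.02 (interval -0.23 to 0.26, adjusted p = 0.953, limma). Ccnb1 read 6.82, 6.77, 7.12, 7.33 and 7.13 in corn oil and 7.05, 7.25, 7.04, 6.73 and 6.85 after PCN by probe set 1370346_at. The groups overlapped almost fully, with a log2 fold change of -0.05 (interval -0.32 to 0.23, adjusted p = 0.877). Its second probe set, 1370345_at, lay between 5.63 and 6.15 on all arrays. Cdk1 read 6.08 to 6.36 in corn oil and 5.91 to 6.44 after PCN. Both of these were below the limit on low values, and the fit without that limit gave -0.07 for this Ccnb1 probe set (adjusted p = 0.82) and -0.15 for Cdk1 (adjusted p = 0.542), both on the log2 scale.

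**Figure D3:**
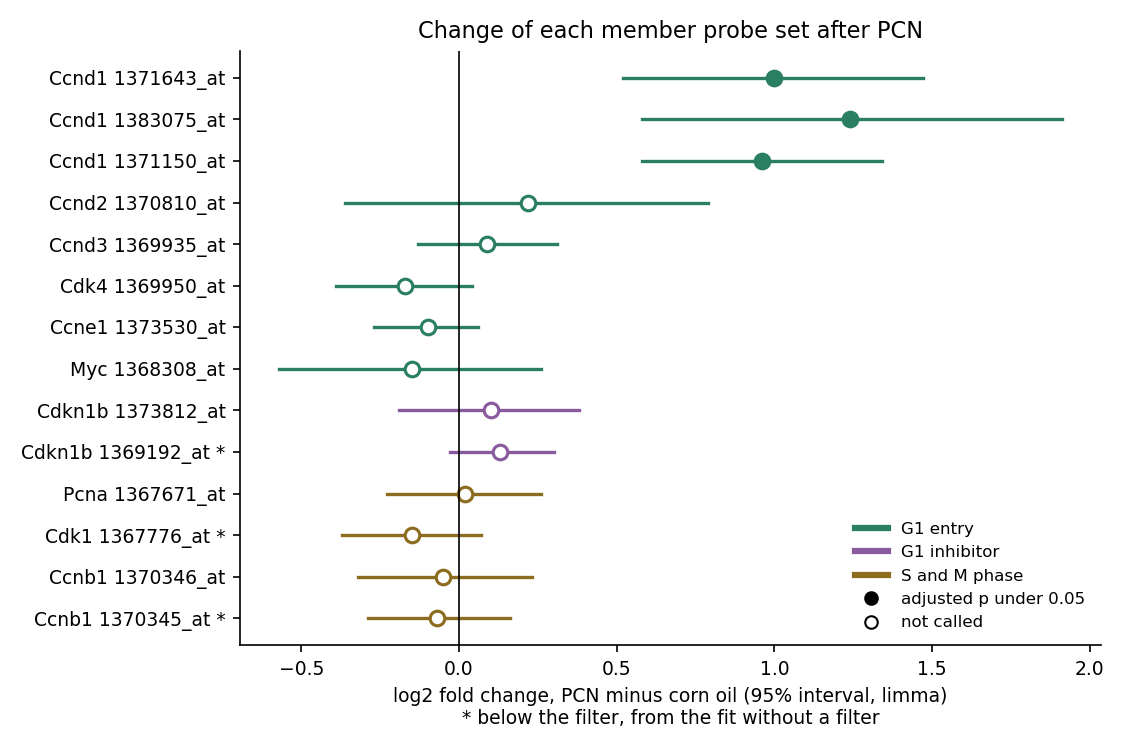
Log2 fold change of each member probe set, PCN minus corn oil, with its 95% interval from limma (n = 5 per group), coloured by role; filled points have an adjusted p under 0.05, and probe sets marked * come from the fit without the limit on low values. The 3 Ccnd1 intervals run from 0.52 to 1.91, while the intervals of all other member probe sets include 0.

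Set side by side, the 8 tested probe sets of the G1 entry genes (Ccnd1, Ccnd2, Ccnd3, Cdk4, Ccne1 and Myc) had 3 called higher, all of Ccnd1, and a median log2 fold change of 0.15, with a range from -0.17 to 1.24. That median was -0.01 over the brightest probe set of each gene, -0.06 with the term for 2 sets of arrays, 0.31 with array weights and 0.33 with both arrays numbered 2 left out. It ran from 0.07 without corn oil replicate 4 to 0.25 without PCN replicate 2 when single arrays were left out. The 5 G1 entry probe sets other than Ccnd1 had a median of -0.10 and a range from -0.17 to 0.22. The 2 tested probe sets of the S and M phase genes, those of Pcna and Ccnb1, had values of 0.02 and -0.05. The median over all 11106 probe sets was 0.00. Apart from Ccnd1, the values of the G1 entry genes lay on both sides of those of the later phases.

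The log2 ratio of the brightest Ccnd1 probe set to that of Pcna on the same array was 0.39 in corn oil and 1.37 after PCN. Over the 8 other tested genes the shift of this ratio ran from 0.78 for Ccnd2 to 1.17 for Cdk4. The 8 ratios share the Ccnd1 value of each array and restate its rise, so they are given as a description with no test.

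Other genes of the same steps were taken from lists that hold no member. Each gene is represented by its brightest tested probe set, from the first array type where it was tested there. On the second array type 5.4% of 10693 tested probe sets were called, 3.76% higher and 1.64% lower. At an unadjusted p below 0.05 (limma) 1219 of the 11106 tested probe sets of the first array type were higher and 745 lower. Of the 10693 of the second, 1415 were higher and 1504 lower. The unadjusted counts of each list are to be read beside these. Of 17 tested genes of G1 and the restriction point limma called 0 higher and 1 lower (2 higher and 5 lower at an unadjusted p below 0.05), with a median log2 fold change of -0.09. The gene that fell was Ccng2, a cyclin linked to cell cycle arrest, from 8.16 ± 0.24 to 7.58 ± 0.15 (SD, n = 5 each), or 1.5-fold (adjusted p = 0.0228). It was called in 17 of 21 alternatives, and not with the term for 2 sets of arrays (adjusted p = 0.0798) or without corn oil replicate 5 or PCN replicate 1 or 4. Cdkn1a (p21) had a log2 fold change of -0.64 that missed the threshold (adjusted p = 0.268). Its corn oil arrays were scattered, at 8.59 ± 0.76 against 7.94 ± 0.14 after PCN (SD, n = 5 each). Of 16 tested genes of DNA replication limma called 0 higher and 1 lower (0 higher and 2 lower at an unadjusted p below 0.05), with a median of 0.00. That gene was Rpa1, which coats single-stranded DNA, from 8.24 ± 0.10 to 7.86 ± 0.10 (log2 fold change -0.38 ± 0.08 SE, adjusted p = 0.0266). It was called in 15 of 21, and not with the replicate block (adjusted p = 0.0962), with the term, or without replicate 3 or 5 of either group.

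Of 17 tested genes of G2 and mitosis limma called 0 (0 higher and 2 lower at an unadjusted p below 0.05), with a median of -0.10 and 4 of 17 values above 0. The smallest p values were those of Birc5, the mitotic protein survivin (log2 fold change -0.24, adjusted p = 0.256), and Cks2, a subunit of the CDK complex (-0.46, adjusted p = 0.268). Of 21 tested MYC partners and MYC-regulated growth genes limma called 0 (4 higher and 1 lower at an unadjusted p below 0.05), with a median of 0.13 and 15 of 21 values above 0. Odc1, which makes polyamines, had the smallest p (log2 fold change 0.55 ± 0.14 SE, adjusted p = 0.0599), followed by the nucleolar helicase Ddx21 (0.37, adjusted p = 0.128). Odc1 is also in the list of the early growth response and is counted in both.

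Of 27 tested genes of the early growth response 3 rose and 1 fell (9 higher and 2 lower at an unadjusted p below 0.05), with a median of 0.14. Jun, an AP-1 subunit and early gene of liver growth, rose from 8.56 ± 0.58 to 9.66 ± 0.20 (SD, n = 5 each), or 2.14-fold (adjusted p = 0.0286, limma), and its other tested probe sets were called as well, at log2 fold changes of 0.73 and 0.96. The brightest Jun probe set was called in 12 of 21 alternatives, and not with the term, with both arrays numbered 2 left out, or without corn oil replicate 1, 3 or 4 or PCN replicate 1, 3, 4 or 5 (highest adjusted p = 0.0766, without PCN replicate 4). Il1r1, the interleukin-1 receptor, rose 2.10-fold (adjusted p = 0.0304), while its other probe set was not called (log2 fold change 1.58, adjusted p = 0.0662). Its call held in 14 of 21, and not with the term (adjusted p = 0.231) or without replicate 3, 4 or 5 of either group. Tnfrsf1a, the tumour necrosis factor receptor, rose from 11.37 ± 0.13 to 12.04 ± 0.17, or 1.59-fold (adjusted p = 0.00451). Ier2, another immediate early gene, fell 1.66-fold (adjusted p = 0.0171). Tnfrsf1a and Ier2 were called in all 21 alternatives, with adjusted p values up to 0.0391 and 0.0491. Over the 5 lists the count of genes higher was 1 in place of 3 without corn oil replicate 3 or 4, without PCN replicate 3 or 4, or with the term for 2 sets of arrays. It was 5 without PCN replicate 2. The count lower was 1 in place of 3 without corn oil replicate 5.

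**Figure D4:**
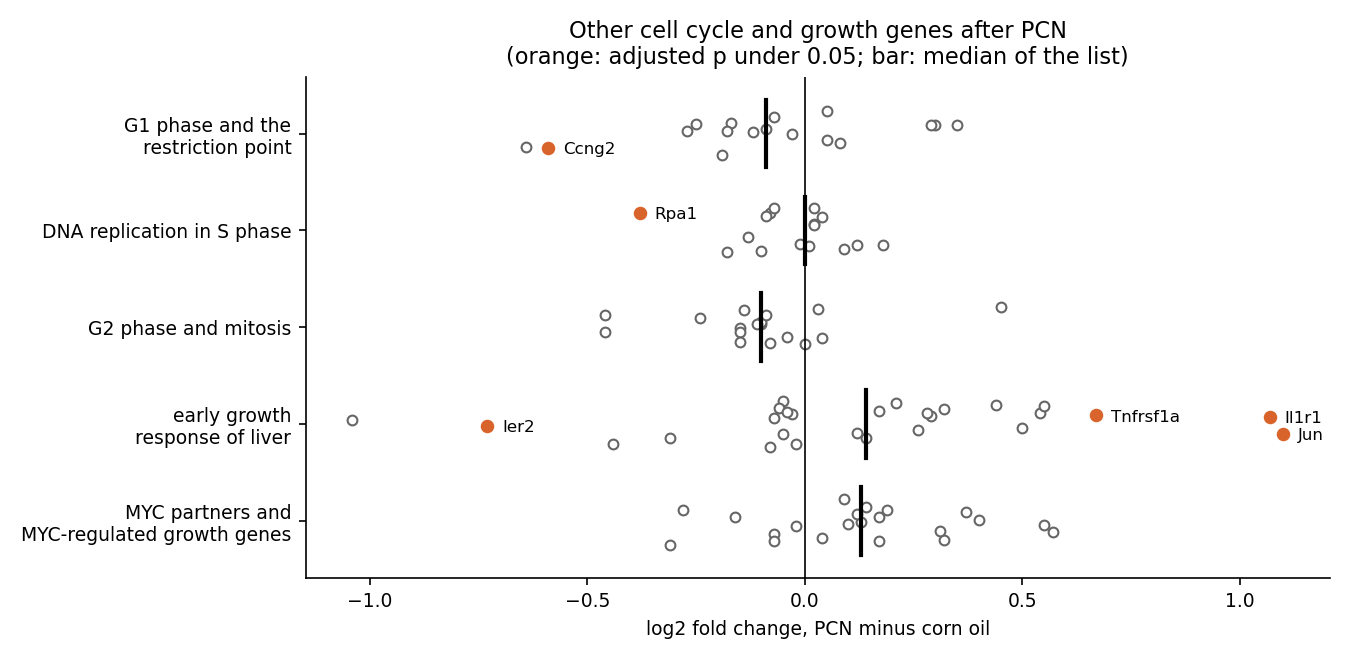
Log2 fold change, PCN minus corn oil, of each tested gene in 5 lists of other cell cycle and growth genes; orange points have an adjusted p under 0.05 and vertical bars are list medians. The medians lie between -0.10 and 0.14, and of the 6 called genes 4 belong to the early growth response.

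The genes whose values most resembled those of Ccnd1 over the 10 arrays were the nucleoporin Nup153 (Pearson's r = 0.946), the vesicle transport gene Trappc3 (0.944), Ttc17 (0.942), the tyrosine phosphatase Ptpn2 (0.942) and Pgs1 (0.938), an enzyme of cardiolipin synthesis. With the group means removed r was 0.814 to 0.836. These are the highest of the tested single-gene probe sets, picked from the same arrays, and no other member was among them. Within the members Ccnd2 and Ccnd1 correlated with r = 0.477, and with 0.504 after the group means were removed.

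The arrays measured whole liver, in which fewer cells of a type and less RNA per cell cannot be told apart. All 8 hepatocyte markers were tested, each by its brightest probe set, and limma called 0 of them (1 at an unadjusted p below 0.05). Levels are means over all probe sets of the markers on the first array type. For the 13 hepatocyte probe sets they were 11.98 to 12.38 in corn oil arrays and 12.16 to 12.40 in PCN arrays. Of 8 stellate cell and fibroblast markers, all tested, 0 were called (3 higher at an unadjusted p below 0.05), with a median log2 fold change of 0.29. Mean levels over their 11 probe sets were 8.32 to 8.73 in corn oil and 8.57 to 8.79 after PCN. Of 7 tested Kupffer cell and macrophage markers and 7 endothelial markers 0 were called (1 and 0 at an unadjusted p below 0.05), with medians of 0.26 and 0.15. Of 6 tested lymphocyte markers 0 were called (4 lower at an unadjusted p below 0.05), with a median of -0.15. Of 3 tested bile duct markers 0 were called (0 at an unadjusted p below 0.05), with a median of -0.07. Of 4 tested red cell markers 0 were called (2 lower at an unadjusted p below 0.05), with a median of -0.28, and the 1 tested neutrophil marker had a log2 fold change of 0.58 and was not called. The unadjusted counts over all tested probe sets, given with the lists above, apply to these markers too. The part of these cell types in the rise of Ccnd1 was not tested.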

How the data were processed

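The authors deposited log2 expression values in 2 tables, a row per probe set and a table per array type. MAS5 is named, with no version, per the submitters' processing notes; summarization, background correction and normalization are not given in the sources used here. The base was inferred to be 2 from the range of the values, and they were analysed as deposited. Genes came from the platform annotation, with symbols updated by gene identifier through RefSeq (GRCr8). The 57 control probe sets of each table were left out, then those whose mean over all arrays was under the 30th percentile (6.67 and 5.51). Each table was fitted alone with limma 3.58.1 in R 4.3.3, with treatment as the only term and an intensity trend in the variances. The p-values were two-sided and adjusted over the table (Benjamini-Hochberg), with a threshold of 0.05. The fit was tested on simulated data. The named genes were all members, the called genes of each list (at most 4, or the 2 with the smallest p) and the 5 genes most correlated with Ccnd1. Cdkn1a was named after its value was seen, as were Cyp3a23-3a1, Alas1 and Por. Members, lists and the 2 sets of arrays were chosen with earlier results of these data known. Alternatives were other filters, scalings and variance models, array weights, a replicate block, the term for 2 sets of arrays and leaving out each array. Omission of both arrays numbered 2 was added after seeing the data.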

Additional observations from a re-analysis of the deposited data

Results flagged for a closer look

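Of 28 groups of 5 values checked among the member probe sets (14 probe sets in each treatment), 1 held an array far from the rest, and chance alone gives about 1 in 20. The brighter Cdkn1b probe set read 10.19 in corn oil replicate 2, whereas the nearest of the other corn oil arrays read 9.83 and the lowest 9.75. The gap was 0.812 of the range of the group, above Dixon's critical value of 0.71 for 5 samples. PCN replicate 2 in Ccnd1 did not pass that limit in any of the 3 probe sets.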

How the results depend on the processing

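The 3 Ccnd1 probe sets had a positive log2 fold change in all 21 alternatives, 0.80 to 1.28 for 1371643_at (called in 12), 0.93 to 1.69 for 1383075_at (called in 8) and 0.71 to 1.15 for 1371150_at (called in 20). The number of member probe sets called higher was 1 with the replicate block, 0 with the term for 2 sets of arrays, and 1 to 3 when single arrays were left out. It was 0 lower in all of them. With the replicate block the log2 fold change of 1371150_at was 0.96 (adjusted p = 0.037), and same-numbered arrays did not deviate together (correlations from -0.301 to 0.284), so the numbers were not taken as pairs. With both arrays numbered 2 left out, which raises the Ccnd1 estimates by construction, all 3 Ccnd1 probe sets were called. Other genes of the 5 lists called higher numbered 8 with array weights, 1 with the term, 6 with both arrays numbered 2 left out and 1 to 5 without single arrays, and those called lower 1 to 3 without single arrays. Among members that were not called, signs changed near 0. Pcna was -0.05 with quantile normalization and -0.03 with a trimmed mean, and -0.04 to 0.09 when single arrays were left out, below 0 for corn oil replicate 4 and PCN replicates 3 and 4. With the term, Pcna was -0.08, Ccnd2 -0.14, Ccnd3 -0.02 and Ccnb1 0.13, and Ccnb1 was -0.11 to 0.03 when single arrays were left out, above 0 for replicate 4 of either group. All probe sets called, 361 and 577 as reported for the first and second array type, ranged from 154 (without corn oil replicate 4) to 1051 (array weights) and from 84 (without corn oil replicate 4) to 1479 (without PCN replicate 5). Causes of these changes were not tested. Arrays per group limit the precision.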
